A study of Mus musculus with 12 samples.

Results

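The imprinted Igf2 and H19 locus of the mouse was examined in maps of acetylated histone H4 (H4ac) from C2C12 cells. The members are all H4ac peaks that overlap the 200 kb window on chromosome 7 from 149700000 to 149900000 (mm9). There were 52 such peaks among the 85369 peaks of the 6 deposited lists, and they merged into 17 of the 31891 regions of the whole series. C2C12 is an established mouse myoblast line. The cells had been transduced with lentivirus carrying MLX-WT or MLX-DN, and both groups carried such a construct. MLX is a transcription factor and the partner of MondoA and ChREBP, which respond to glucose. The labels leave DN unexplained, and their description field has MLX down for the same samples. The names of the peaks in every list include a tag for glucose. Each group had 3 H4ac libraries and 3 input libraries, and 1 peak list per H4ac library was used. Whether replicates came from separate cultures is not stated, and p-values here cover the spread among these libraries only, which may be technical. No gene annotation of the files' build was used, so the labelled cell type was not checked against marker genes.

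Igf2 encodes insulin-like growth factor 2, a secreted growth factor that myoblasts release as a myokine and that promotes their differentiation. H19 is a long noncoding RNA that also serves as the precursor of a microRNA. The 2 genes are imprinted in opposite directions: Igf2 is transcribed mainly from the paternal chromosome and H19 from the maternal one. A control region between them binds the insulator protein CTCF on the maternal chromosome, and enhancers on the far side of H19 serve both genes. The title of the series links MLX to myokine signalling, and the question here is whether acetylated H4 at this locus depends on which MLX construct the cells carried. The peak lists do not separate the parental alleles.

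The window was defined with approximate gene positions, H19 near 149.76 Mb and Igf2 near 149.84 to 149.85 Mb. In the RefSeq annotation of the later GRCm38 build, the genes named here lie in the order Tnnt3, Mrpl23, Nctc1, H19, Igf2, Ins2 and Th. Other genes, among them microRNAs and long noncoding RNAs, lie between some of them. Tnnt3 encodes the troponin T of fast skeletal muscle, Mrpl23 a mitochondrial ribosomal protein and Nctc1 a long noncoding RNA. Ins2 encodes insulin and Th tyrosine hydroxylase. Builds were not converted, so peaks below are given by their mm9 position and by their distance from the approximate positions of the 2 genes, and none was assigned to a transcript.

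RefSeq promoter sequences were matched for 1 of the 2 members, Igf2, with 4 start sites on the minus strand of chromosome 7 (GRCm38.p6). Igf2 is the myokine of this study, and MLX and its partners bind E-boxes, so the 250 bases before a start site are shown for the first and the last of the 4 sites in the direction of transcription. Capitals mark CANNTG, the general E-box. CACGTG, the form preferred by MLX and its partners, is a special case of CANNTG, and both motifs read the same on either strand.
Igf2 start site 1: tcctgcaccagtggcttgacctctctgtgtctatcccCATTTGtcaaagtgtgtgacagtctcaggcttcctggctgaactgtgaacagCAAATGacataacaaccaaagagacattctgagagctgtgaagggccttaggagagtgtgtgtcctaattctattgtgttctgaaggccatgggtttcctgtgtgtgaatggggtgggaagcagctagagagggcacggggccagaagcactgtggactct
Igf2 start site 4: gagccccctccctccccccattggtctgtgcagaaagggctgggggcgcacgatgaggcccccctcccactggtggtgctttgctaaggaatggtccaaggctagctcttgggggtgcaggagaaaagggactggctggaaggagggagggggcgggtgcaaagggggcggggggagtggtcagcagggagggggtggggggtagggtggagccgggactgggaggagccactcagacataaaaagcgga
CACGTG was found in 0 of the 4 Igf2 sequences and CANNTG in 1 of them, at start site 1. Of the 32851 mouse promoter sequences of this length, 6.02% held CACGTG and 66.2% held CANNTG. GC content was 50.8% before start site 1 and 66.0% before start site 4. The absence of a motif says only that these letters are not in this window of sequence.

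H4ac peaks lay mostly on the H19 side of the window, and the interval given for Igf2 itself held none in any library. The 17 regions, numbered along the chromosome, fell into 6 stretches separated by gaps of at least 5 kb. Regions 1 and 2 lay between 149718520 and 149720359, and regions 3 to 10 between 149734424 and 149748183. Regions 11 to 14 lay next to the H19 position, between 149762110 and 149764764. Region 15 lay between the 2 genes, from 149785395 to 149786401. Region 16 (149832702 to 149833173) and region 17 (149853781 to 149854133) bracketed the Igf2 interval and were the only peaks within 50 kb of it. The 20607 bp between them, the whole Igf2 interval included, held no peak in any of the 6 lists. Another 46300 bp without a peak separated region 15 from region 16. Beyond region 17 no list held a peak for 339260 bp, until 150193394.

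**Figure D1:**
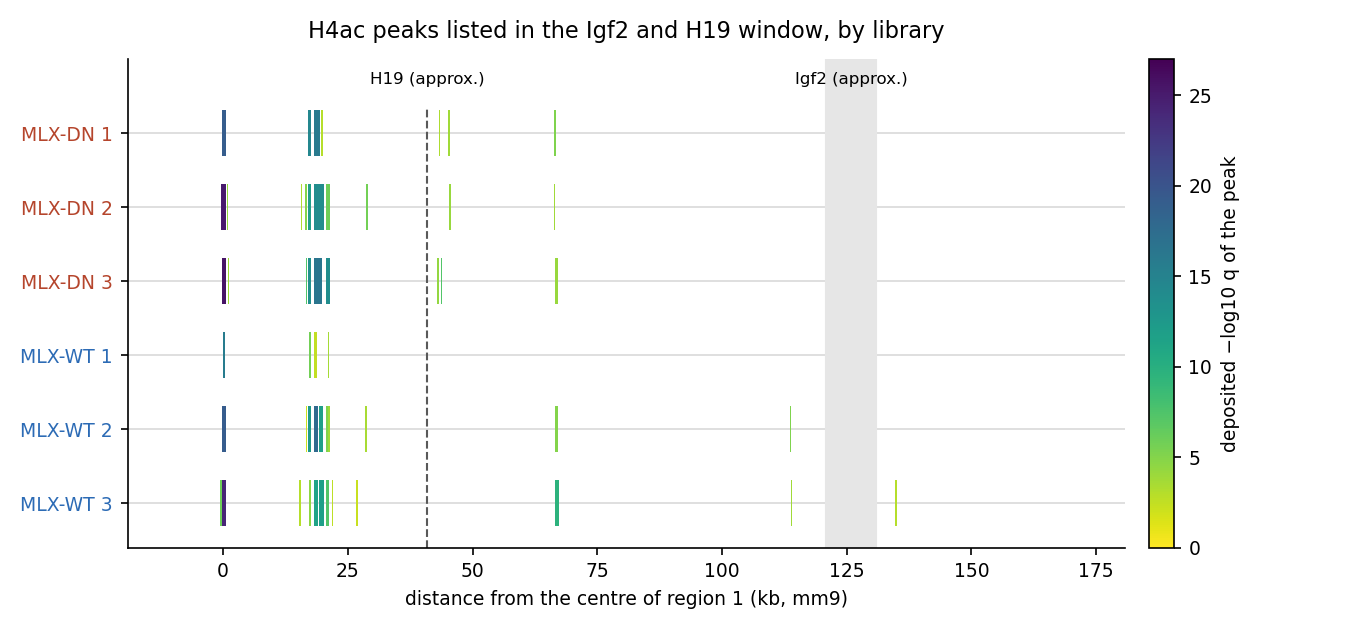
Peaks of the Igf2 and H19 window in each of the 6 lists, drawn to scale as bars against the distance in kb from the centre of region 1 and coloured by the deposited −log10 q. The dashed line and the grey band mark the approximate positions of H19 and Igf2; all 6 libraries have peaks in the first 2 clusters, the MLX-DN libraries alone have peaks beside the H19 line, and MLX-WT replicates 2 and 3 alone have peaks on the sides of the Igf2 band.

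MLX-DN replicates 1, 2 and 3 listed 7, 10 and 9 peaks in the window, and MLX-WT replicates 1, 2 and 3 listed 4, 10 and 12. Both groups thus held 26 peaks, and MLX-DN averaged 8.67 ± 1.53 peaks per library against 8.67 ± 4.16 for MLX-WT (SD, n = 3; two-sided exact permutation test, p = 1.0). Without MLX-WT replicate 1, which had the fewest, MLX-WT averaged 11 peaks, and without MLX-WT replicate 3, which had the most, it averaged 7. The smallest p that this exact test can give with 3 libraries against 3 is 0.10. Peaks of the MLX-DN replicates, here and below in the order 1 to 3, covered 3897, 6730 and 5684 bp, and those of the MLX-WT replicates covered 1728, 5179 and 6256 bp. MLX-WT replicate 1 was the lowest in both measures and the groups overlapped. MLX-DN averaged 5437 ± 1433 bp of covered length against 4388 ± 2365 bp for MLX-WT (SD, n = 3; two-sided exact permutation test, p = 0.60). Without MLX-WT replicate 1 the direction turned, to 5437 bp for MLX-DN and 5718 bp for MLX-WT. Covered length moves with peak number and width, and the mean peak width was 557, 673 and 632 bp for MLX-DN and 432, 518 and 521 bp for MLX-WT.

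The lists differed in length, which bears on the share each gives to the locus. They held 15201, 24811 and 16898 peaks for MLX-DN and 5385, 13652 and 9422 for MLX-WT, and ChIP depths recovered from them were 3.30 to 3.90 reads per 250 bp. The window held 0.0460%, 0.0403% and 0.0533% of the MLX-DN lists and 0.0743%, 0.0732% and 0.127% of the MLX-WT lists. Each MLX-WT share exceeded each MLX-DN share, with means of 0.0916% ± 0.0309 and 0.0465% ± 0.00649 (SD, n = 3; two-sided exact permutation test, p = 0.10). Among all 200 kb tiles with at least 20 peaks over the 6 lists, 14.5% separated the groups in this direction and 18.9% in the opposite one, so the separation alone does not set the locus apart. Without MLX-WT replicate 3, the highest library, the mean MLX-WT share was 0.0738%. At equal list length, with the 5385 strongest peaks of each library, the groups no longer separated, at 0.0557% to 0.0743% for MLX-DN and 0.0743% to 0.111% for MLX-WT (exact permutation test, p = 0.30).

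A summed peak number in MLX-DN at or below that in MLX-WT was uncommon among tiles rich in peaks and less so among all tiles. The summed number in MLX-DN was at or below that in MLX-WT in 4.46% of the 1367 tiles with at least 20 peaks and in 20.2% of all 5773 tiles with a peak. The median ratio was 1.95 over the 1361 peak-rich tiles that held an MLX-WT peak. The ratio in the Igf2 and H19 window was 1.00, a tie of 26 peaks with 26. Separate peaks of a library within the same region each count here. Counted as regions, the window gave 6, 10 and 9 for MLX-DN and 4, 8 and 10 for MLX-WT. The sum was then larger for MLX-DN, so the tie was lost. The tiles were not counted in this way. The comparison with tiles was not among those planned, and it was not tested. In the 100 kb on the low-coordinate side of the window the lists held 15, 26 and 19 peaks for MLX-DN and 9, 15 and 12 for MLX-WT. The ratio of the group means was 1.67 there, with overlapping groups (exact permutation test, two-sided, p = 0.20). The 100 kb on the high-coordinate side held 0 peaks in every list. The window itself was rich in H4ac peaks. The median tile with a peak held 1 to 3 peaks per library, and 88.0% to 99.4% of tiles held fewer peaks than the window did in the same library.

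**Figure D2:**
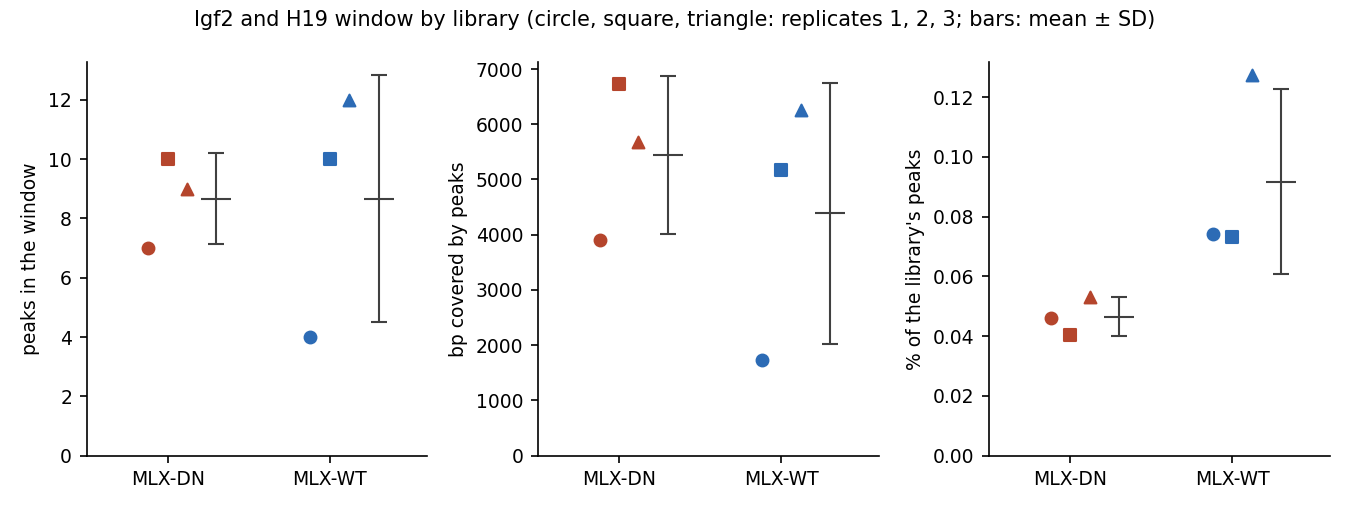
Number of peaks, base pairs covered and percent of the library's peaks in the Igf2 and H19 window, with 1 point per library and the mean ± SD of 3 libraries beside each group. Peak number (4 to 12) and covered length overlap between the groups, while the share of the list is 0.0403% to 0.0533% for MLX-DN and 0.0732% to 0.127% for MLX-WT.

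Of the 17 regions, 3 were listed by all 6 libraries (17.6%, against 9.74% of all regions), 5 by MLX-DN libraries only, 4 by MLX-WT libraries only and 6 by a single library (35.3%, against 42.9% of all regions). No region was in the lists of all 3 MLX-DN libraries and absent from MLX-WT, or the reverse. Over the whole series 6.10% of regions were in all MLX-DN lists and in none of MLX-WT, and 0.166% the other way round. Regions of MLX-DN libraries only made up 29.4% of the window, against 51.5% of all regions. Those of MLX-WT libraries only made up 23.5%, against 9.70%. These shares rest on 17 regions and were not tested. MLX-WT replicate 3 listed all 4 regions of MLX-WT libraries only, and regions 8, 9 and 17 were listed by that library alone.

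Region 1 (149718520 to 149719780) had the highest −log10 q of the window in every library. Its strongest peak had a fold over control background of 4.93, 6.52 and 5.69 for MLX-DN and of 5.06, 6.07 and 7.38 for MLX-WT. The −log10 q was 19.2, 25.2 and 25.7 for MLX-DN and 15.8, 19.3 and 24.2 for MLX-WT. Both measures overlapped between the groups. Within the lists these peaks ranked 995, 916 and 423 for MLX-DN and 321, 945 and 136 for MLX-WT, at percentiles of 93.2 to 98.6 of their own list by −log10 q. Widths ran from 463 bp in MLX-WT replicate 1 to 1103 bp in MLX-DN replicate 2, and the 6 summits lay within 134 bp of each other. MLX-WT replicate 3 listed a second, weaker peak in this region, with a fold of 4.24 and a −log10 q of 5.95. Region 2 lay 99 bp farther on and was listed by MLX-DN replicates 2 and 3 only, with folds of 3.56 and 3.19.

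The second cluster, 12 to 26 kb from the H19 position on its low-coordinate side, held 30 of the 52 peaks. Its core consisted of regions 5, 6 and 7 between 149736166 and 149740618. Peaks of the cluster covered 2270, 4612 and 3220 bp for MLX-DN and 1265, 3424 and 3792 bp for MLX-WT, with MLX-WT replicate 1 lowest and MLX-DN replicate 2 highest. Region 5 (149736166 to 149736828) was listed by all 6 libraries, with folds of 5.33, 4.10 and 4.82 for MLX-DN and 3.74, 5.21 and 2.95 for MLX-WT. Its −log10 q was 14.5, 11.9 and 13.6 for MLX-DN and 5.76, 12.4 and 4.52 for MLX-WT. MLX-WT replicate 2 lay within the MLX-DN range and the other two MLX-WT libraries were below it.

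Region 6 (149737309 to 149739441) was the widest of the window, at 2133 bp, and was also listed by all 6 libraries. MLX-DN replicate 2 listed it as 1 peak of 2077 bp and MLX-DN replicate 3 as 1 peak of 1630 bp. MLX-DN replicate 1 and MLX-WT replicates 2 and 3 each listed 2 peaks in it, and MLX-WT replicate 1 a single one of 596 bp. The fold of the strongest peak was 5.98, 4.82 and 6.35 for MLX-DN and 2.55, 6.83 and 5.79 for MLX-WT, so that MLX-WT held both the lowest and the highest value. The strongest peak measured 1249 to 2077 bp for MLX-DN and 596 to 1064 bp for MLX-WT. Of the 3107 regions listed by all 6 libraries, 21.2% separated the groups by width in this direction. This width counts only the stronger peak where a library listed 2. The peaks of MLX-WT replicate 2 measured 850 and 856 bp and those of MLX-WT replicate 3 measured 752 and 1064 bp. With both peaks counted, the covered lengths of the groups overlapped. MLX-WT replicate 3 had its strongest summit in this region at 149739030, and the other 5 libraries had theirs between 149737528 and 149737755.

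Region 7 (149739747 to 149740618) was listed by 5 libraries and not by MLX-DN replicate 1. MLX-DN replicates 2 and 3 had folds of 4.16 and 5.85, and the MLX-WT replicates had folds of 2.99, 4.08 and 4.58. The −log10 q was 13.9 in MLX-DN replicate 3 and at most 7.22 in the others. On the low-coordinate side of this core, region 3 was listed by MLX-DN replicate 2 and MLX-WT replicate 3 and region 4 by MLX-DN replicates 2 and 3 and MLX-WT replicate 2. On its other side, regions 8 and 9 were listed by MLX-WT replicate 3 only and region 10 by replicate 2 of both groups. These 5 outer regions had folds of 2.69 to 4.47 and percentiles of 2.01 to 57.2 within their lists.

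**Figure D3:**
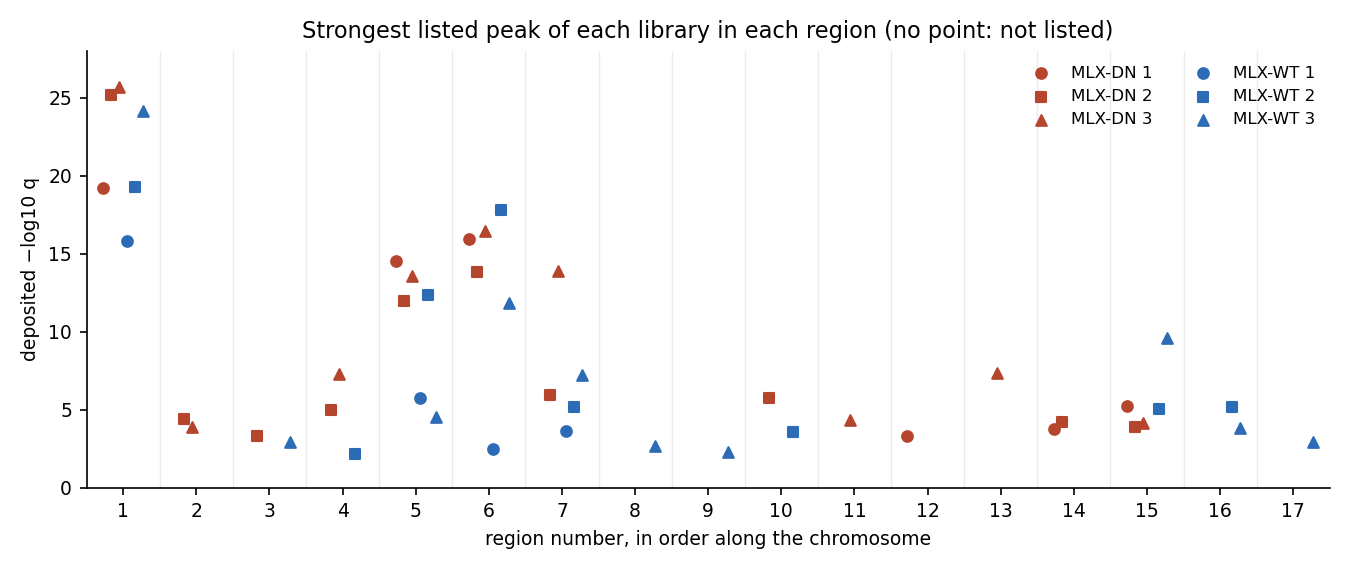
Deposited −log10 q of each library's strongest peak in each of the 17 regions, numbered along the chromosome; a missing point means that the library did not list the region. Region 1 reaches 15.8 to 25.7 in all 6 libraries, and regions 8 to 17 stay below 10 wherever they are listed.

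At the 3 regions listed by every library, reads at the summit were higher in MLX-DN while folds overlapped. Read numbers and control background were recovered from the deposited fold and p-value, and each read number was divided by the ChIP depth of its library in reads per 250 bp. At region 1 this ratio was 18.6, 17.4 and 20.1 for MLX-DN and 15.9, 13.3 and 15.2 for MLX-WT, from 62, 68 and 73 reads and 55, 51 and 50 reads. At region 5 it was 12.9, 13.3 and 12.7 against 8.67, 9.88 and 9.40. At region 6 it was 12.6, 12.8 and 11.6 against 8.67, 10.7 and 9.09. The 9.09 of MLX-WT replicate 3 belongs to a summit at 149739030, apart from those of the other libraries. The other peak of that library in region 6, with its summit at 149737722, had a ratio of 9.40. Every MLX-DN library thus exceeded every MLX-WT library at all 3 regions, with ratios of the group means of 1.27, 1.39 and 1.30. The same separation was found at 56.8% of the 3107 regions listed by all 6 libraries, so it is the common pattern of the series rather than a feature of this locus. Fold separated the groups in this direction at 9.01% of those regions and at none of the 3 of the window.

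**Figure D4:**
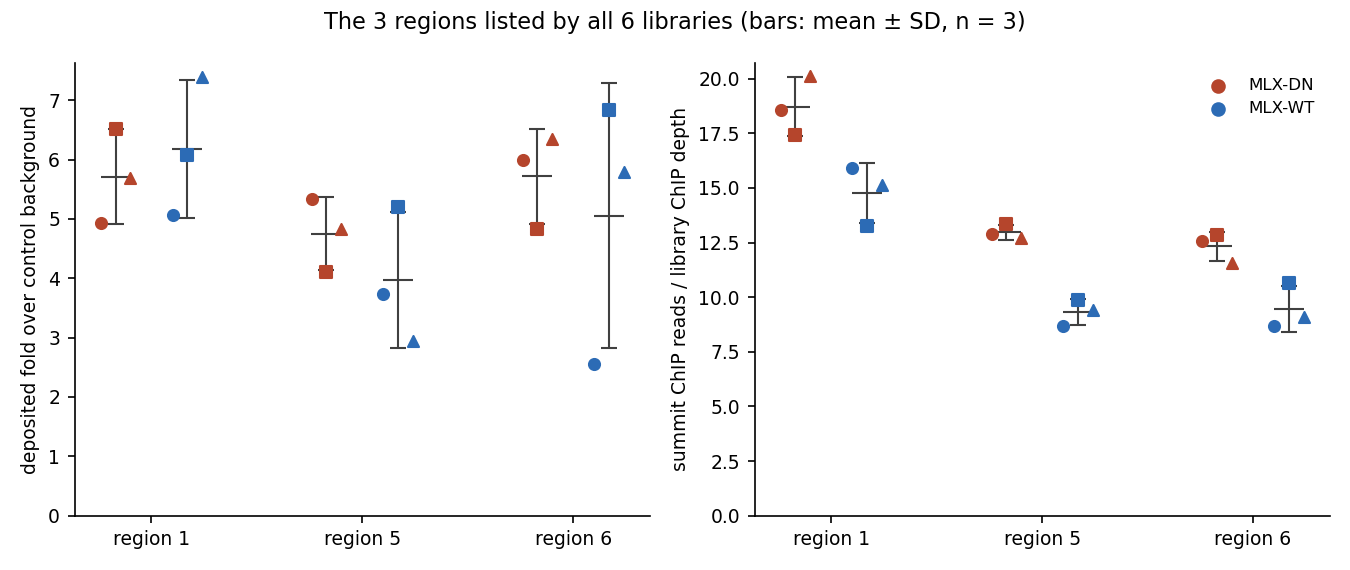
Deposited fold over control background and summit ChIP reads divided by library depth at the 3 regions listed by all 6 libraries, with 1 point per library and the mean ± SD of 3 libraries. Folds of the groups overlap at each region. The depth-scaled reads lie at 11.6 to 20.1 for MLX-DN and 8.67 to 15.9 for MLX-WT. Every MLX-DN point lies above every MLX-WT point of the same region. At region 6 the values of MLX-WT replicate 3 belong to a summit apart from those of the other libraries.

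The control background, over which the fold is taken, also varied between libraries under these peaks. Relative to the lowest control background of each list it was 3.51, 2.42 and 3.29 for MLX-DN and 2.88, 1.95 and 1.79 for MLX-WT at region 1. At region 6 it was 1.84, 2.42 and 1.57 for MLX-DN and 3.20, 1.32 and 1.32 for MLX-WT. MLX-WT replicate 1, whose fold of 2.55 at region 6 was the lowest of the 6, had the highest relative background there. The part of the background in the differences between libraries was not tested. All 52 peaks of the window lay above the lowest background of their list, by factors of 1.12 to 3.51.

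Beside the H19 position, peaks were listed in all 3 MLX-DN libraries and in no MLX-WT library. Regions 11 to 14 spanned 2655 bp and held 2, 1 and 2 peaks of MLX-DN replicates 1, 2 and 3. MLX-DN replicate 3 listed region 11 (149762110 to 149762359) with a fold of 3.72 and region 13 (149762778 to 149763036) with a fold of 4.64. MLX-DN replicate 1 listed region 12 (149762395 to 149762679) with a fold of 3.11. Region 14 (149764308 to 149764764) was listed by MLX-DN replicates 1 and 2, with folds of 3.66 and 3.88. No single one of these 4 regions was listed by all 3 MLX-DN libraries, which shared only the stretch.

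The H19 position is a single approximate point, so whether the 5 peaks beside it lay on the gene itself was not determined. These 5 peaks were of modest strength. They rested on 20 to 27 summit reads, with a −log10 q of 3.32 to 7.37, and stood at percentiles of 11.7 to 57.4 of their lists. Their −log10 p was 6.12 to 10.6, above the smallest values of the MLX-WT lists, which were 4.22, 3.79 and 3.97 in replicates 1 to 3. The p-values of these peaks come from MLX-DN libraries only. They do not show whether an MLX-WT library would have listed a peak there. The nearest MLX-WT peaks were 12.1 to 19.6 kb from the approximate H19 position and the nearest MLX-DN peaks 2.11 to 4.33 kb from it. When regions of the whole genome were joined across gaps under 5 kb in the same way, 6.11% of 17378 stretches were in all MLX-DN lists and in none of MLX-WT. That limit on gaps was set after the window had been seen, and the stretch was not tested. At equal list length none of the 5 peaks was among the 5385 strongest of its library.

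Region 15 (149785395 to 149786401), between the 2 genes, was listed by 5 libraries and not by MLX-WT replicate 1. The MLX-DN replicates had folds of 4.12, 3.57 and 3.30, and MLX-WT replicates 2 and 3 had folds of 3.32 and 5.11. The peak of MLX-WT replicate 3 was the strongest, with a −log10 q of 9.61 and rank 2173 of its list, and the other 4 had a −log10 q of 3.89 to 5.22. Summit reads over depth were 6.59, 5.64 and 6.62 for MLX-DN and 8.06 and 8.49 for MLX-WT, the reverse of the order at regions 1, 5 and 6. The reads belong to different positions within the region, since the peaks of MLX-DN replicates 1 and 2 ended before both MLX-WT summits. They therefore do not compare the groups at a single site. Both MLX-WT values exceeded all MLX-DN values in this way at 1.49% of the 2279 regions listed by 3 MLX-DN and 2 MLX-WT libraries, a comparison made after the values of region 15 had been seen and not tested. The library without a peak has no value here, so the groups cannot be compared in full. The summits of the MLX-DN peaks lay at 149785771, 149785570 and 149785905 and those of the MLX-WT peaks at 149786172 and 149786213, so all MLX-DN summits were on the H19 side of the MLX-WT summits. Such a separation of summits, on either side, was found at 20.8% of the same 2279 regions.

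The only peaks near Igf2 came from MLX-WT libraries. Region 16, on the H19 side of the Igf2 interval, was listed by MLX-WT replicate 2 with a fold of 4.10 and a −log10 q of 5.20. MLX-WT replicate 3 listed it with a fold of 3.67 and a −log10 q of 3.86, and the 2 summits were 81 bp apart. Region 17, on the far side of the interval, was listed by MLX-WT replicate 3 alone, with a fold of 3.04 and a −log10 q of 2.96. These 3 peaks rested on 18 to 22 summit reads and stood at percentiles of 7.93 to 32.6 of their lists. None was among the 5385 strongest of its library. They were 3.78 to 6.94 kb from the Igf2 interval, whereas the nearest MLX-DN peaks were 53.7 to 54.3 kb away and the nearest peak of MLX-WT replicate 1 was 99.6 kb away. Over the genome, 1.14% of stretches were listed by at least 2 MLX-WT libraries and no MLX-DN library, as region 16 was, and 7.51% by MLX-WT libraries only. The limit on gaps that defines a stretch was set after the window had been seen, and neither share was tested. MLX-WT replicate 1, the shortest list, held no peak beyond region 7.

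Weak acetylation in the window could be missed at this depth. No peak of any list rested on fewer than 13 summit reads, and in MLX-WT replicate 1 none rested on fewer than 16. The smallest −log10 q was 1.31 to 1.35 in the 6 lists. The fewest summit reads of a peak in the window were 15, in region 9. A library without a listed peak therefore shows only that no peak was called there, not that H4 was free of acetylation there.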

How the data were processed

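The submitters' processing notes name mm9 as the build, MACS2 2.0.9, BWA 0.5.9-r26, SAMtools, Picard 1.65, CASAVA and R 2.14.0; their roles and settings were not given in the sources used here. The authors deposited 1 peak list per H4ac library, called per sample. The deposited columns are a fold of ChIP over background, which is a ratio, −log10 values of p and q, a summit position and a score, equal in every row to 10 times the −log10 q cut to a whole number. Fold and q are the authors' values and describe and rank peaks within a list here; read numbers were derived from fold and p. Which input library served as control for a list is not stated.

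The window was read from a fixed rule, and coordinates count from 1. Peaks that overlapped or touched were merged into regions, and a library listed a region when it had a peak overlapping it by at least 1 bp. Every region of the window is described. For regions listed by few libraries the plan asked only for range and count, and several of them are described in more detail. Reads were recovered with the relation of the caller's fold (pseudocount 1 on both sides) to its Poisson p-value: 1 scale factor per library turned 100% of peaks into whole read numbers, at a tolerance of 0.001 in −log10 p, and 51 of the 52 peaks of the window had 1 solution. The lowest control background of a list, divided by the scale factor, was taken as ChIP depth. The recovery of scale factors and read numbers was tested on data simulated with the same relation. The simulated peaks had fewer reads than those of region 1 in the MLX-DN libraries, and the step to ChIP depth was not tested. Absolute read totals are unknown. Numbers, covered length and shares were compared with exact permutation tests over 20 assignments, two-sided, with Python 3.11.15, NumPy 2.4.6 and SciPy 1.17.1. The members and lists were chosen with earlier results of these data known. Lists of IGF signalling genes and of myoblast markers were not used, because they need an mm9 annotation. Alternatives are given in the closing section.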

Additional observations from a re-analysis of the deposited data

How the results depend on the processing

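Results were recomputed with peaks at a −log10 q of 5 or more, lists of 5385 peaks, peaks wholly inside the window, a window widened by 100 kb on each side, each library left out, the replicate number as a block and, added after seeing the data, a −log10 p of at least 5 at equal depth. The share of the list was lower in MLX-DN under each of them, and none could pass 0.05. The difference in peak number (MLX-DN minus MLX-WT) was 0 in the full lists, −2.33 to 1.67 with 1 library left out, −1.33 at equal list length and 8 in the widened window. That window takes in the peak-rich flank on the low-coordinate side. Covered length differed by 1049 bp and by −280.5 to 1984 bp with 1 library left out; among all alternatives it turned only without MLX-WT replicate 1 (−280.5 bp). It was 327 bp at equal list length and 8692 bp in the widened window. The difference in share, −0.0451% in the full lists, was −0.0248% at equal list length, −0.0746% in the widened window and −0.0272% without MLX-WT replicate 3. Regions separating the groups numbered 0, and 0 to 1 with 1 library left out: leaving out MLX-DN replicate 1 gave 1, as did leaving out MLX-DN replicate 3 or MLX-WT replicate 1. Blocking on the replicate number, the differences were again 0 peaks, 1049 bp and −0.0451% (exact sign-flip test, p = 0.25 for the share, the smallest 3 pairs allow). Same-numbered libraries correlated at −0.0593, −0.0596 and 0.000683 in their deviations over all regions, so the numbers were not taken as pairs.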
